A study of Drosophila melanogaster with 6 samples.

Results

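The cytochrome P450 genes of Drosophila melanogaster were taken as every gene whose symbol is Cyp followed by a digit and that has a probe set of its own on the array. That rule found 83 genes among the 11983 measured genes, and 2 of them, Cyp1 and Cyp40, are cyclophilins, which are peptidyl-prolyl isomerases and not P450 enzymes. They were set apart, which left 81 P450 genes, and neither was called (adjusted p = 0.38 for Cyp1 and 0.73 for Cyp40, by the test described below). For a gene with several probe sets, the probe set with the highest mean over the 6 arrays was used. By family the members fall into 22 Cyp4, 23 Cyp6, 5 Cyp9, 6 Cyp12 and 19 genes of families Cyp301 to Cyp318, called the high-numbered families here, with 6 genes of other families, namely Cyp18a1, Cyp28a5, Cyp28c1, Cyp28d1, Cyp28d2 and Cyp49a1. The fly gene table lists 85 P450 entries under such symbols, and Cyp9f3, Cyp12d1-p and the pseudogenes Cyp6a15Psi and Cyp6t2Psi have no value of their own here.

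The 6 arrays hold RNA of whole embryos of stages 11 to 16, aged at 25 C and sorted on an embryo sorter before extraction. The 3 wild type samples were Oregon R embryos, and the 3 Sage samples were embryos with a UAS-Sage transgene under tub-Gal4, also in an Oregon R background. Sage, a transcription factor of the basic helix-loop-helix class, is normally made in the salivary gland of the embryo, and tub-Gal4 carries the promoter of an alpha-tubulin gene, which is active in nearly all cells. The question is which genes change when Sage is made throughout the embryo. No array of embryos with the driver alone or with the transgene alone was analysed here, so that the effects of the driver, the insertions and Sage itself cannot be told apart.

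P450 enzymes are haem proteins that insert an oxygen atom into lipids, hormones and foreign compounds. Most sit in the endoplasmic reticulum and take electrons from P450 reductase, while members of the mitochondrial clan take them from a ferredoxin. In insects some P450 enzymes make or break down the moulting hormone ecdysone, some make the hydrocarbons that waterproof the cuticle, and many of the Cyp4, Cyp6, Cyp9 and Cyp12 families are known from detoxification in the gut, fat body and Malpighian tubules.

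Values are log2 RMA signals, and fold changes are differences of group means, Sage minus wild type, tested with limma and adjusted by the Benjamini-Hochberg method over all 11983 genes. A gene was called raised or lowered at an adjusted p under 0.05. On the array 70 control probe sets have no fly target and had group means between 3.23 and 5.35, and a mean at or under 5.35 is described as within the control range. Where 1 group is there, the log2 difference is the measured one, and the fold is given only as a bound, the mean of the brighter group against that of the dimmer with each of its arrays set to at least 5.35. Where both are there, no fold is given. Sage RNA itself was at 7.68, 8.08 and 7.40 in wild type and at 12.17, 12.31 and 12.28 in the Sage embryos, a 23.1-fold difference (adjusted p = 5.9e-05). The arrays correlated at 0.9745 to 0.994 within wild type, 0.989 to 0.996 within the Sage group and 0.960 to 0.983 across groups. The arrays numbered 2 in both groups lay apart from the others on a principal component with 32.4% of the variance, and among P450 genes wild type array 2 was the farthest of its group from the mean for 43 of 81 and Sage array 2 for 37 of 81. All 24 polyadenylated spike-in probe sets were lower on the Sage arrays, by a median of 1.65 on the log2 scale, while hybridisation controls differed by 0.08. The gap between 3′ and 5′ probe sets of 3 housekeeping genes was wider on the Sage arrays by 0.82 to 1.29. These labelling and RNA quality values move with the group on every result below, and their part in the results was not tested. The labels do not say whether replicates are separate collections, and p-values then cover only how far these samples spread, which may be technical. In whole embryos, fewer cells of a type and less RNA per cell cannot be told apart.

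Of the 81 P450 genes 20 were called (24.7%), where 8.09% of all genes were. They split into 8 raised genes (9.88%, against 4.36% of all genes) and 12 lowered genes (14.8%, against 3.72%). By family group, 22.7% of the Cyp4, 26.1% of the Cyp6, 40% of the 5 Cyp9 and 50% of the 6 Cyp12 genes were called. For the high-numbered families it was 15.8% and for the other families 16.7%. In the Sage embryos Cyp6d2 was 7.27-fold higher and Cyp4ae1 went from the control range to clear signal, whereas Cyp6a13 was 5.30-fold lower and Cyp6a8 went from clear signal into the control range. A measured difference of at least 2-fold together with a call was seen for 14 members (17.3%, against 3.18% of all genes), 6 of them raised and 8 lowered. The 3 wild type and 3 Sage arrays did not overlap for 39 members (48.1%, against 31.8% of all genes), with Sage higher for 16 (19.8%, against 15.7%) and wild type higher for 23 (28.4%, against 16.1%). Over all 81 members, called or not, the median log2 difference was 0.00045, beside -0.0063 over all genes. Both group means were within the control range for 38 members (46.9%, against 31.7% of all genes). Of the 61 uncalled members 17 had an unadjusted p under 0.05. The share of all genes with such a p is not given here. Counts by unadjusted p, here and in the lists below, are therefore not read as a sign of change. With the replicate number as a block, 27 members were called (33.3%, against 14.7% of all genes), all 20 among them. Of the 81 members 11 were then raised, where 7.35% of all genes were, and 16 lowered, where 7.39% of all genes were. Without Sage array 1, 2 or 3 the number called was 11 (13.6%), 12 (14.8%) and 9 (11.1%), where 3.02%, 2.67% and 2.29% of all genes were called. Leaving out each array in turn kept 8 of the 20 calls in all 6 fits, namely Cyp4ae1, Cyp6d2, Cyp6a13, Cyp309a2, Cyp6a8, Cyp309a1, Cyp9c1 and Cyp304a1.

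**Figure D1:**
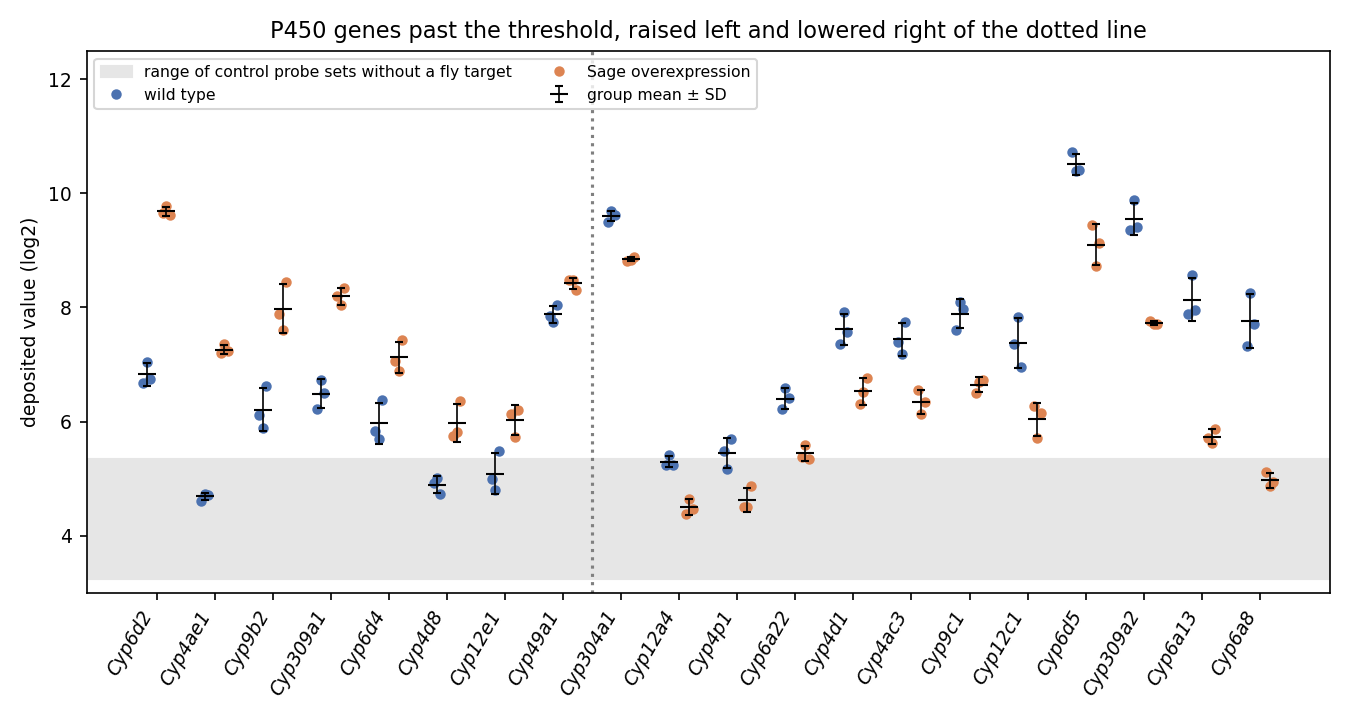
Log2 signal of the 20 called P450 genes on each of the 6 arrays, with wild type in blue, Sage overexpression in orange, group means ± SD in black and the control range as a grey band. For each of the 20 genes the 3 arrays of either group lie wholly above or wholly below those of the other.

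The Cyp6 family holds the best known insecticide resistance genes of the fly, and 2 of its 23 measured members were raised and 4 lowered. All 3 measured genes of the Cyp6d subfamily were called, in both directions. Cyp6d2, whose product is known for protection against the plant alkaloid camptothecin, was at 6.68, 7.05 and 6.75 in wild type and at 9.66, 9.78 and 9.63 in the Sage embryos. Every Sage array was far above every wild type array, with a log2 difference of 2.86 (SE 0.13, adjusted p = 1.1e-04). Cyp6d4 was at 5.84, 5.70 and 6.37 in wild type and at 7.06, 6.89 and 7.42 in the Sage embryos. Sage was higher on every array, and the rise was 2.23-fold (log2 1.16, SE 0.22, adjusted p = 0.026). Its call was lost without wild type array 1 or any 1 of the Sage arrays, at an adjusted p of up to 0.114. Cyp6d5, inducible by phenobarbital in adult flies, was at 10.72, 10.40 and 10.41 in wild type and at 9.45, 8.72 and 9.13 in the Sage embryos. Every Sage array was below every wild type array, and the fall was 2.66-fold (log2 -1.41, SE 0.20, adjusted p = 0.011), lost without Sage array 3 (adjusted p = 0.065).

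In the Cyp6a subfamily 3 of 13 measured genes were lowered and the other 10 were not called. Cyp6a13 was at 7.88, 8.58 and 7.96 in wild type and at 5.71, 5.62 and 5.87 in the Sage embryos. Even the lowest wild type array was well above the highest Sage array, and the fall was 5.30-fold (log2 -2.40, SE 0.20, adjusted p = 0.0017). Cyp6a8, overexpressed in insecticide resistant strains and inducible by phenobarbital, was at 7.32, 8.26 and 7.71 in wild type and at 5.12, 4.87 and 4.93 in the Sage embryos. All 3 Sage values were within the control range, and the signal was at least 5.34-fold lower (measured log2 difference -2.79, SE 0.24, adjusted p = 0.0017). Cyp6a22 was at 6.21, 6.58 and 6.41 in wild type and at 5.38, 5.59 and 5.35 in the Sage embryos. Wild type was again higher on every array, the fall was 1.95-fold (log2 -0.96, SE 0.13, adjusted p = 0.0094), and the call was lost without Sage array 1 or 3 (adjusted p 0.052 and 0.064).

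The other 17 Cyp6 genes were not called. In 11 of them both groups were within the control range, with log2 differences from -0.38 to 0.45, and this set takes in genes for which adult roles are known. Cyp6g1, whose overexpression gives resistance to DDT, was at 4.95 ± 0.25 (SD, n = 3) in wild type and 4.56 ± 0.13 in the Sage embryos (log2 -0.38, adjusted p = 0.18). Its neighbour Cyp6g2 was at 4.76 ± 0.04 and 4.81 ± 0.06 (log2 0.05, adjusted p = 0.80, 95% interval of the difference -0.17 to 0.26), and Cyp6a2, raised in resistant strains, was at 4.23 ± 0.22 and 4.36 ± 0.14 (log2 0.13, adjusted p = 0.65). Cyp6a17, known from temperature preference in flies, was at 4.68 ± 0.16 and 5.13 ± 0.18 (log2 0.45, adjusted p = 0.10) and passed the threshold with the replicate block (adjusted p = 0.037). The 6 uncalled Cyp6 genes above the control range in at least 1 group, Cyp6a16, Cyp6a20, Cyp6t1, Cyp6u1, Cyp6v1 and Cyp6a23, had differences from -0.48 to 0.22. A probe set shared by shn and Cyp6v1 differed by 0.24 (adjusted p = 0.68 over all probe sets).

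Of the 5 Cyp9 genes, which belong to the same clan as Cyp6, Cyp9b2 was raised and Cyp9c1 lowered. Cyp9b2 was at 6.12, 5.89 and 6.62 in wild type and at 7.89, 7.60 and 8.45 in the Sage embryos. Within each group array 2 was lowest and array 3 highest, the groups did not overlap, and the rise was 3.41-fold (log2 1.77, SE 0.27, adjusted p = 0.014). Without Sage array 1 or Sage array 3 the adjusted p was 0.060 and 0.050, the latter just over the threshold. Cyp9c1 was at 7.61, 8.09 and 7.98 in wild type and at 6.50, 6.70 and 6.74 in the Sage embryos. Its lowest wild type value was above its highest Sage value by more than the range of either group, and the fall was 2.37-fold (log2 -1.25, SE 0.15, adjusted p = 0.0064). Cyp9f2 was among the 4 members nearest outside the threshold, at 9.14 ± 0.42 in wild type and 8.32 ± 0.10 in the Sage embryos (log2 -0.82, adjusted p = 0.064, and 0.024 with the replicate block, which makes 2 lowered Cyp9 genes). It was also called without wild type array 2 or 3 (adjusted p 0.022 and 0.048). Cyp9b1 and Cyp9h1 were within the control range in both groups.

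**Figure D2:**
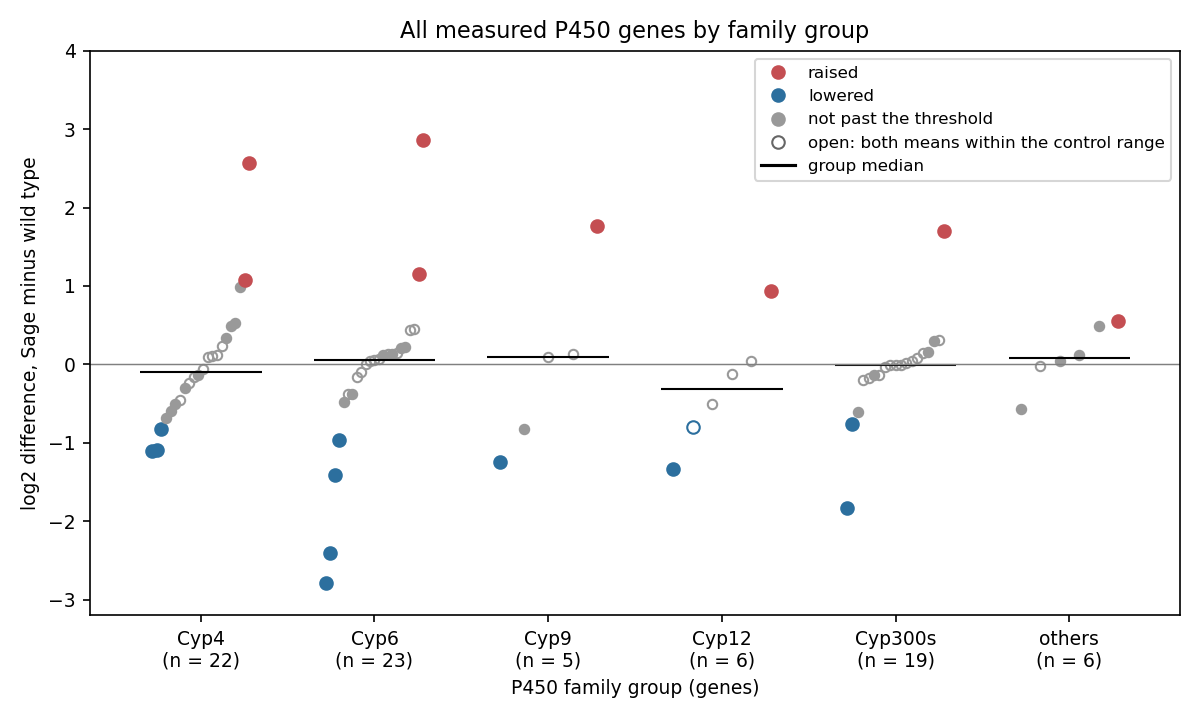
Log2 difference, Sage minus wild type, of each of the 81 P450 genes by family group, with raised genes in red, lowered genes in blue, group medians as lines and open points for genes with both means within the control range. Called genes lie on both sides of 0 in the Cyp4, Cyp6, Cyp9, Cyp12 and high-numbered groups (Cyp300s on the axis), and the group of other families has a single called gene, Cyp49a1.

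Cyp4 enzymes are known mainly as fatty acid hydroxylases, and the Cyp4g members as the enzymes that finish cuticular hydrocarbons. Of the 22 measured Cyp4 genes 2 were raised and 3 lowered, with a median difference of -0.10. With the replicate block 4 were raised and 5 lowered. Cyp4ae1 was at 4.61, 4.74 and 4.72 in wild type, within the control range, and at 7.19, 7.35 and 7.24 in the Sage embryos. The arrays of each group lay close together, and the signal was at least 3.77-fold higher in the Sage embryos (measured log2 difference 2.57, SE 0.096, adjusted p = 4.6e-05, the smallest among the members). Cyp4d8 was at 4.93, 5.02 and 4.74 in wild type, also within the control range, and at 5.75, 5.82 and 6.36 in the Sage embryos. The groups did not overlap, with a signal at least 1.55-fold higher in the Sage embryos (measured log2 difference 1.08, SE 0.18, adjusted p = 0.019), and the call was lost without wild type array 1, wild type array 3 or Sage array 2, at an adjusted p of up to 0.066.

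The 3 lowered Cyp4 genes were Cyp4ac3, Cyp4d1 and Cyp4p1. Cyp4ac3 was at 7.40, 7.18 and 7.75 in wild type and at 6.55, 6.13 and 6.35 in the Sage embryos. Wild type was higher on every array, the fall was 2.14-fold (log2 -1.10, SE 0.18, adjusted p = 0.017), and without Sage array 2 or 3 the adjusted p was 0.077 and 0.090. Cyp4d1 was at 7.37, 7.91 and 7.57 in wild type and at 6.31, 6.51 and 6.77 in the Sage embryos. Its groups too did not overlap, the fall was 2.12-fold (log2 -1.09, SE 0.18, adjusted p = 0.019), and leaving out any 1 Sage array lost the call (adjusted p 0.052 to 0.084). Cyp4p1 was at 5.49, 5.17 and 5.69 in wild type and at 4.49, 4.51 and 4.87 in the Sage embryos. The Sage values were within the control range and the lowest wild type value was too, so that the bound is only at least 1.07-fold lower (measured log2 difference -0.83, SE 0.17, adjusted p = 0.037), and the call held in 1 of 6 fits without an array, the one without wild type array 2 (adjusted p up to 0.137 in the others).

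Of the 17 uncalled Cyp4 genes 8 were within the control range in both groups. Cyp4g1, the oenocyte decarbonylase that makes the cuticular hydrocarbons, had clear signal in both groups, at 9.003 ± 0.401 in wild type and 9.34 ± 0.07 in the Sage embryos (log2 0.33, adjusted p = 0.38, 95% interval of the difference -0.148 to 0.815). Cyp4g15, known from the nervous system, was at 5.47 ± 0.27 and 5.96 ± 0.29 (log2 0.49, adjusted p = 0.19), and its adjusted p with the replicate block was 0.034. Among the members just outside the threshold, Cyp4p2 had a difference of -0.68 (adjusted p = 0.053), Cyp4d2 of 0.98 (adjusted p = 0.059) and Cyp4e3 of -0.46 with both means within the control range (adjusted p = 0.071). The block brought Cyp4p2 (adjusted p = 0.046), Cyp4d2 (adjusted p = 0.0061) and Cyp4e2 (log2 -0.59, adjusted p = 0.13 without the block and 0.027 with it) past the threshold. Without wild type array 2 the adjusted p of Cyp4d2 was 0.0073 and that of Cyp4e2 0.030, and without wild type array 3 Cyp4ad1 passed as well (log2 0.52 and adjusted p = 0.125 on all arrays, 0.035 without it).

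Cyp12 genes belong to the mitochondrial clan, as do Cyp49a1 and Cyp301a1 among the members, and 1 of 6 was raised and 2 were lowered. Cyp12c1 was at 7.36, 7.83 and 6.95 in wild type and at 6.27, 5.72 and 6.15 in the Sage embryos. The groups did not overlap, and the fall was 2.53-fold (log2 -1.34, SE 0.25, adjusted p = 0.026). It was lost without wild type array 1 or any 1 of the Sage arrays, at an adjusted p of up to 0.109. Cyp12a4, whose overexpression gives resistance to the growth regulator lufenuron, was at 5.25, 5.41 and 5.25 in wild type and at 4.39, 4.65 and 4.46 in the Sage embryos. Both means were within the control range, the measured log2 difference was -0.80 (SE 0.11, adjusted p = 0.00997), and the call was lost without Sage array 1 or 3 (adjusted p 0.052 and 0.068). Cyp12e1 was at 4.997, 4.79 and 5.48 in wild type and at 6.13, 5.73 and 6.21 in the Sage embryos. Its wild type mean was within the control range, and the signal was at least 1.55-fold higher in the Sage embryos (measured log2 difference 0.93, SE 0.21, adjusted p = 0.048), lost in 4 of 6 fits without an array, those without wild type 1 or a Sage array (adjusted p up to 0.194). A dimmer probe set for Cyp12e1 differed by 0.62 (adjusted p = 0.19 over all probe sets, and 0.031 with the block), and over all probe sets the brighter one had an adjusted p of 0.055.

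The remaining Cyp12 genes, Cyp12a5, Cyp12b2 and Cyp12d1-d, were within the control range in both groups. Cyp12d1, present in the fly as a tandem pair of nearly identical copies, is inducible by many foreign compounds in adults. The copy with a probe set of its own, Cyp12d1-d, was at 4.27 ± 0.17 in wild type and 3.77 ± 0.17 in the Sage embryos (log2 -0.50, adjusted p = 0.075), and the block brought it past the threshold (adjusted p = 0.028), as did leaving out wild type array 2 (adjusted p = 0.029). Cyp12d1-p is covered only by a probe set shared with Cyp12d1-d, which differed by -0.37 (adjusted p = 0.20 over all probe sets), so the copies cannot be told apart there.

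In the high-numbered families, which belong to several clans, 1 of 19 genes was raised and 2 were lowered, and 12 of 19 were within the control range in both groups. Cyp309a1 and Cyp309a2, which lie next to each other on arm 2L, were called in opposite directions. Cyp309a1 was at 6.23, 6.73 and 6.50 in wild type and at 8.21, 8.04 and 8.34 in the Sage embryos. Its Sage arrays were all higher, and the rise was 3.27-fold (log2 1.71, SE 0.16, adjusted p = 0.0025). Cyp309a2 was at 9.37, 9.88 and 9.42 in wild type and at 7.77, 7.71 and 7.70 in the Sage embryos. Here the Sage arrays were all lower and nearly alike, and the fall was 3.55-fold (log2 -1.83, SE 0.15, adjusted p = 0.0017). Cyp304a1, of the CYP2 clan, was at 9.51, 9.69 and 9.62 in wild type and at 8.82, 8.83 and 8.89 in the Sage embryos. The difference was smaller, 1.69-fold, with tight groups that did not overlap (log2 -0.76, SE 0.095, adjusted p = 0.0069).

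The high-numbered P450 genes with known roles in the cuticle and sense organs were not called. Cyp301a1, known from the adult abdominal cuticle, was at 9.25 ± 0.07 in wild type and 9.40 ± 0.12 in the Sage embryos (log2 0.15, adjusted p = 0.44, 95% interval -0.10 to 0.40). Cyp303a1, needed for sensory bristles, was at 4.36 ± 0.05 and 4.35 ± 0.12, within the control range (log2 -0.0061, adjusted p = 0.98). Cyp310a1 was at 8.32 ± 0.50 and 7.71 ± 0.07 (log2 -0.61, adjusted p = 0.18). Its wild type arrays spread far more than its Sage arrays. The 5 measured Cyp313a genes were within the control range in both groups, with differences from -0.20 to 0.31, and none was called by limma or had an unadjusted p under 0.05.

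Among the other families, Cyp49a1 was raised. It was at 7.84, 7.75 and 8.04 in wild type and at 8.48, 8.49 and 8.31 in the Sage embryos. The groups did not overlap, but the 1.46-fold rise (log2 0.55, SE 0.12, adjusted p = 0.037) was lost in 4 of 6 fits without an array, those without wild type 1 or a Sage array (adjusted p up to 0.135), and without both arrays numbered 2 (adjusted p = 0.075). Cyp18a1, the hydroxylase that inactivates ecdysteroids, had clear signal at 10.04, 9.95 and 9.95 in wild type and at 9.90, 10.003 and 10.39 in the Sage embryos. The groups overlapped, with a log2 difference of 0.12 (adjusted p = 0.68, 95% interval -0.23 to 0.47). On its dimmer probe set the groups did not overlap, at 8.64, 8.90 and 8.70 against 9.15, 9.23 and 9.72, with a log2 difference of 0.61 (adjusted p = 0.094 over all probe sets). The Cyp28 genes, Cyp28a5, Cyp28c1, Cyp28d1 and Cyp28d2, had differences from -0.57 to 0.49 and were not called. By clan and among the 81 members, 10 of 37 genes of the CYP3 clan, 5 of 32 of the CYP4 clan, 4 of 8 of the mitochondrial clan and 1 of 4 of the CYP2 clan were called. Of all genes 8.09% were called. In the same order of clans, 6, 1, 0 and 1 of these calls held in all 6 fits without an array.

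Many P450 genes arose by tandem duplication, and position was not used to choose the members. Along the Release 6 assembly, 14 runs of adjacent P450 genes hold 41 of the measured members, of which 11 were called, and 9 of the 40 members outside such runs were called. Of all genes 8.09% were called. In 9 of the 14 runs at least 1 gene was called, in 5 none was, and in only 2 were there more than 1. Those 2 are the Cyp309a pair, called in opposite directions, and the run of 9 genes on arm 2R from Cyp6a22 to Cyp317a1, in which Cyp6a22 and Cyp6a8 were lowered and the other 7 were not called. In the Cyp4d14, Cyp4d2 and Cyp4ae1 run on the X all 3 differences were positive, with Cyp4ae1 called, and in the Cyp4ac and Cyp4p runs all 3 were negative, with Cyp4ac3 and Cyp4p1 called. Of the uncalled genes there, Cyp4d14 (log2 0.12), Cyp4ac1 (log2 -0.06), Cyp4ac2 (log2 -0.16) and Cyp4p3 (log2 -0.24) were within the control range in both groups. Cyp4d2 and Cyp4p2 were above it in both groups. Like signs in a run are therefore not read as neighbours shifting together. Related neighbours can share sequence, and how far a probe set of one copy takes up RNA of another was not tested.

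**Figure D3:**
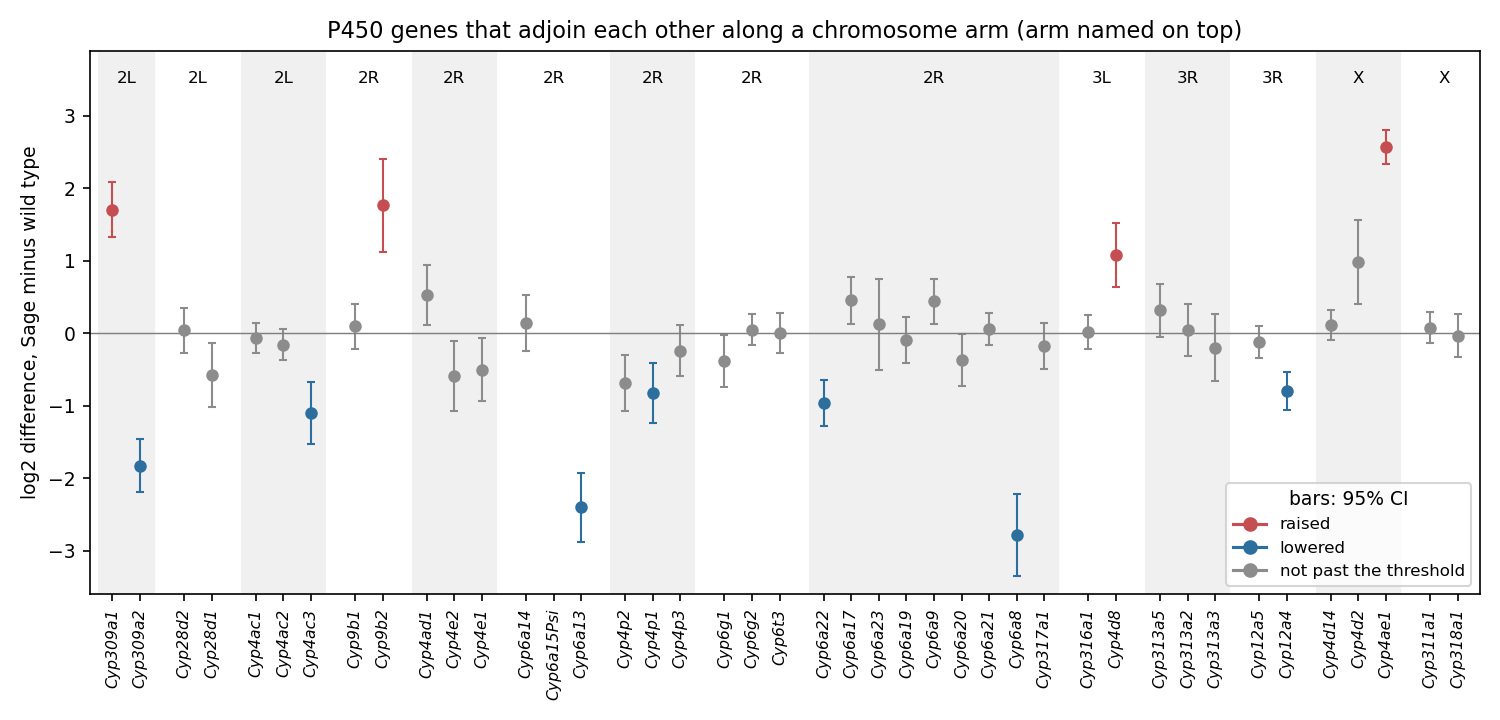
Log2 difference, Sage minus wild type, of the measured genes in the 14 runs of adjacent P450 genes, in chromosome order within each run, with bars for the 95% interval, raised genes in red and lowered genes in blue. Of these runs only the Cyp309a pair holds both a raised and a lowered gene, and 5 runs hold no called gene.

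The genes that work with P450 enzymes were described from lists by role. Of 7 measured redox partners, which pass electrons to P450 enzymes, limma called none, and 1 had an unadjusted p under 0.05. That was Cyt-b5-r, with a difference of 0.65 (adjusted p = 0.15). Cpr, the reductase itself, was not analysed here. Of 12 ecdysteroid synthesis genes, which include P450 enzymes with names of their own such as dib, sad, spo and shd, limma called none, and 2 had an unadjusted p under 0.05. The list's median was -0.08, the smallest p was that of shd (log2 -0.44, adjusted p = 0.17), and 6 of the 12 were within the control range in both groups. Of 12 measured ecdysone response genes limma called none, and 2 had an unadjusted p under 0.05. Hr39 had a difference of -0.57 (adjusted p = 0.096, and 0.0497 without wild type array 3). The block called 1 gene, E23 (log2 -0.66, adjusted p = 0.21 without the block and 0.046 with it), which also passed without wild type array 2 (adjusted p = 0.040).

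Of 8 measured juvenile hormone genes limma called none, and 3 had an unadjusted p under 0.05. The jhamt gene, which encodes the methyltransferase of the last steps of juvenile hormone synthesis, was at 8.64, 9.25 and 7.03 in wild type and at 6.05, 6.13 and 6.43 in the Sage embryos. The groups did not overlap, but wild type array 3 was far below the other 2, and the 4.30-fold difference (log2 -2.10, SE 0.53) had an adjusted p of 0.061, or 0.038 with the block. Without wild type array 3 the adjusted p was 0.0044, and without wild type array 2 it was 0.0497. Of 7 xenobiotic regulators 1 was raised (14.3% called, against 8.09% of all genes). It was the nuclear receptor gene Hr96, known from the response to foreign compounds and dietary lipids. Hr96 was at 7.01, 7.20 and 7.19 in wild type and at 8.16, 8.19 and 8.35 in the Sage embryos, a 2.14-fold rise (log2 1.10, adjusted p = 0.0030) called in all 6 fits without an array. Of 7 measured xenobiotic transporters limma called none, and 2 had an unadjusted p under 0.05. Mdr49 had a difference of -0.52 (adjusted p = 0.15), and Mdr65, at 0.92 (adjusted p = 0.17), passed with the block (adjusted p = 0.019).

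UDP-glycosyltransferases attach sugars to products of P450 enzymes and other small molecules, and of 35 measured genes 2 were raised and 3 lowered. That is 14.3% called, against 8.09% of all genes. With the block, which called 14.7% of all genes, 4 were raised and 5 lowered. Ugt37C1 was at 7.18, 7.29 and 6.87 in wild type and at 8.74, 8.96 and 8.69 in the Sage embryos, a 3.21-fold rise (adjusted p = 0.0018). Ugt35D1 was at 10.97, 11.43 and 10.82 in wild type and at 9.28, 9.31 and 9.29 in the Sage embryos, a 3.43-fold fall (adjusted p = 0.0026). Neither overlapped between the groups, and both were called in all 6 fits without an array. Ugt305A1 (log2 -0.94, adjusted p = 0.0060) and Ugt35A1 (log2 -1.03, adjusted p = 0.026) were lowered, and Ugt307A1 was raised with both means within the control range (log2 0.64, adjusted p = 0.048, and 0.052 with the block). The calls of Ugt35A1 and Ugt307A1 held in 1 of 6 fits without an array, the one without wild type array 2, with an adjusted p of up to 0.104 and 0.151 in the others. The median log2 difference of the list was 0.07.

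**Figure D4:**
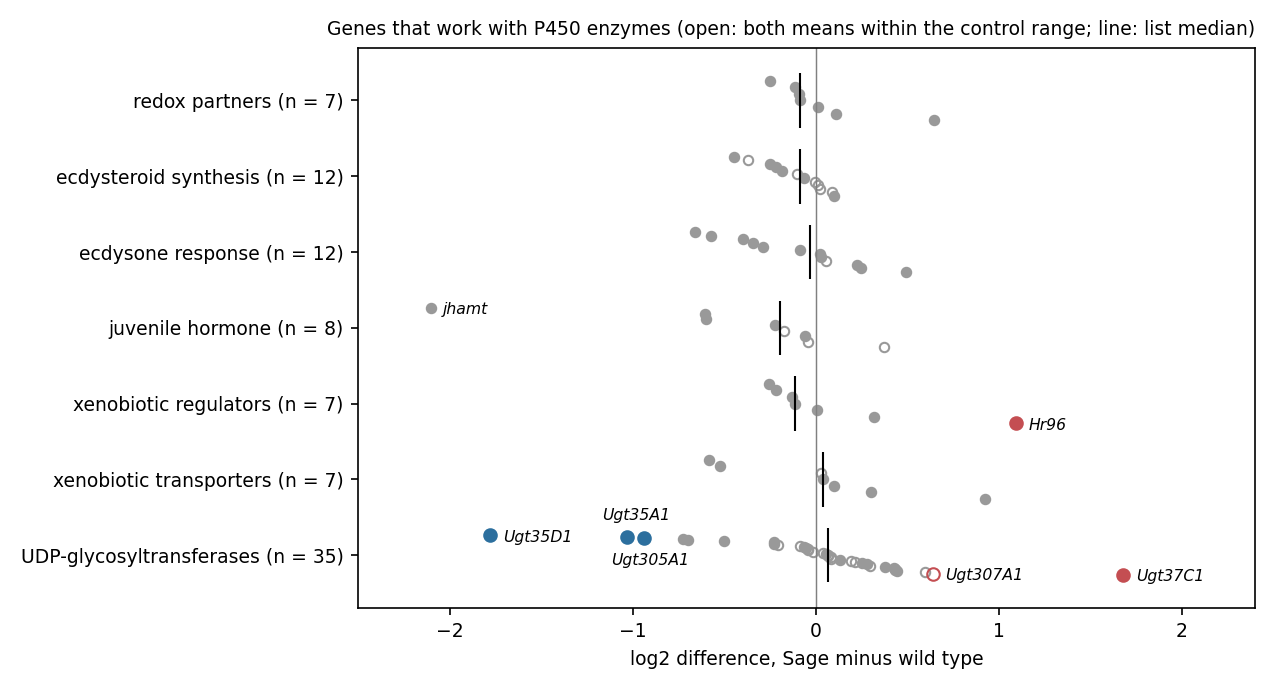
Log2 difference, Sage minus wild type, of the measured genes of 7 lists of genes that work with P450 enzymes, with list medians as vertical lines and open points for genes with both means within the control range. Coloured points are called genes, namely Hr96 and 5 UDP-glycosyltransferases, and jhamt lies farthest to the left without a call.

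Markers of the tissues in which P450 genes are known to be active, and of the salivary gland and trachea, were set beside these results. Over all genes 4.36% were raised and 3.72% lowered. Of 6 oenocyte markers limma called none, with 2 at an unadjusted p under 0.05, and the log2 of their summed signal was 11.55 to 11.74 in wild type and 11.49 to 11.61 in the Sage embryos. The smallest p was that of Hnf4 (log2 -0.49, adjusted p = 0.055, and 0.041 with the block). A summed signal, here and below, is carried mostly by the brightest genes of a list, such as apolpp for fat body and mex1 for midgut. It is not read as the amount of a tissue. Of 5 measured fat body markers limma called none, with 1 at an unadjusted p under 0.05, summed levels of 12.11 to 13.88 and 11.87 to 13.70 and Fbp1 within the control range in both groups. Lsp2 had the smallest p (log2 0.28, adjusted p = 0.13), and Apoltp, lowest on both arrays numbered 2, passed with the block (adjusted p = 0.57 without it and 0.036 with it).

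Of 8 measured midgut markers alphaTry was raised (log2 1.14, adjusted p = 0.0057), with 4 at an unadjusted p under 0.05 and summed levels of 11.74 to 12.08 and 11.77 to 11.92. The block lowered Mal-A1 as well (log2 -0.79, adjusted p = 0.064 without it and 0.0497 with it, or 0.018 without wild type array 1). Jon65Aiv (log2 1.73) and betaTry (log2 0.55) were higher on every Sage array but not called (adjusted p = 0.11 for both). Over the list 6 differences were positive and 2 negative. The midgut marker iotaTry was within the control range. Of 7 measured Malpighian tubule markers limma called none, with 3 at an unadjusted p under 0.05 and summed levels of 9.43 to 9.80 and 9.45 to 9.60. ZnT35C had a difference of 0.70 (adjusted p = 0.058, 0.027 with the block and 0.0047 without wild type array 2). Oatp58Dc (log2 -0.49, adjusted p = 0.15) and Oatp58Da (log2 -0.45, adjusted p = 0.097) went the other way. Over the list 3 differences were positive and 4 negative. Irk2, Oatp58Da, Oatp58Db and Alp4 were within the control range in both groups. Of 5 measured salivary gland markers PH4alphaSG1 (log2 1.497, adjusted p = 0.0076), PH4alphaSG2 (log2 1.45, adjusted p = 0.037) and Papss (log2 0.99, adjusted p = 0.0098) were raised, and the summed level was 11.65 to 11.94 in wild type and 12.69 to 12.90 in the Sage embryos. PH4alphaSG2 was called in 1 of 6 fits without an array, the one without wild type array 2 (adjusted p up to 0.139 in the others), and Papss was lost without Sage array 3 (adjusted p = 0.057). Of 4 measured trachea markers serp was raised (log2 0.55, adjusted p = 0.038, and up to 0.169 without any 1 array other than wild type array 2), with summed levels of 12.70 to 12.87 and 13.04 to 13.17. The brightest were serp, with means of 11.88 in wild type and 12.43 in the Sage embryos, and verm, with 11.42 and 11.47. The salivary gland markers fkh (log2 0.03) and pip (log2 0.35) and the trachea markers btl (log2 -0.19), pio (log2 -0.19) and verm (log2 0.05) were not called. The part of the 3 raised salivary gland markers and of serp in the P450 differences was not tested.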

How the data were processed

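RNA of 6 samples, 3 per group, was measured on Affymetrix arrays labelled with a 3′ IVT kit, per the labels' protocols. RMA and Partek were used, per the submitters' processing notes, with versions and filters not given in the sources used here. The deposited values were read as RMA signals on a log2 scale, since they run from 2.90 to 14.6 with nearly equal array means. Of 18952 probe sets 183 are controls, and of the rest 13647 are paired with 1 gene, 402 with several and 4720 with none in the platform annotation. Symbols were updated through the Release 6 gene table. Wild type and Sage samples were compared with limma 3.58.1 (lmFit and eBayes) in R 4.3.3, two-sided, with Benjamini-Hochberg adjustment over 11983 genes. Precision is limited by the number of arrays. The limma procedure was tested on simulated data with known changes.

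Members and gene lists were chosen with earlier results of these data known. The text names every called member, 12 fixed P450 genes, the 4 members nearest outside the threshold and, of each list, up to 4 called genes or the one with the smallest p. Other genes were named after their values were seen, some of them because the replicate block or a left-out array changed their call. Same-numbered arrays deviated together from their group means at correlations of 0.39, 0.67 and 0.33, all over 0.1, although the labels do not say what a number shares, and other pairs reached 0.43. Wild type array 3 with Sage array 1 (0.43) lay above the same-numbered pairs 1 (0.39) and 3 (0.33). The check therefore cannot show that the numbers pair the samples. The fit has no block, and blocked values stand where they change a call. Alternatives were the block, median centring, quantile normalization, leaving out dim genes or single arrays, array weights, robust eBayes with a trend, averaging the probe sets of a gene, treat, and an adjusted p of 0.01. Leaving out both arrays numbered 2 was added after seeing the data. Promoter motifs and sequences were not analysed here. Tables and figures were made in Python 3.11.15 (pandas 2.3.3, matplotlib 3.10.9).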

Additional observations from a re-analysis of the deposited data

How the results depend on the processing

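The precision is limited by 3 arrays per group, by the 38 P450 genes within the control range in both groups, and by labelling and RNA quality values that differ with the group. Causes of the shifts below were not tested.

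Counts are raised, then lowered. With the replicate block, 4 and 5 Cyp4 genes were called, 2 Cyp9 genes lowered, 1 ecdysone response and 1 juvenile hormone gene lowered, 1 transporter raised, and 4 and 5 UDP-glycosyltransferases called. Apart from the genes named with a blocked value, and the UDP-glycosyltransferases counted as a list, the block changed no call among the named genes. With array weights, which called 33.9% of all genes, the counts were 21 and 22 for all P450 genes, 6 and 8 for Cyp4, 7 raised for Cyp6, 2 lowered for Cyp9, 4 raised for the high-numbered families, and 2 and 1 for the other families. The same weights gave 1 raised redox partner, 1 and 4 for ecdysteroid synthesis, 5 lowered for ecdysone response, 1 and 4 for juvenile hormone, 2 and 2 for xenobiotic regulators, 1 and 1 for transporters, and 12 and 6 for UDP-glycosyltransferases. The setting with dim genes left out dropped genes with a mean over the arrays under 6.92, the median of all genes, so that Cyp4ae1 and Cyp6a8 were not tested. With it 22 P450 genes stayed, with 3 and 6 called (8.38% of all genes then tested) and a median of -0.19. By group that was 0 and 1 for Cyp4, 1 and 2 for Cyp6, 0 and 0 for Cyp12, 0 raised for the other families, and 1 and 1 for UDP-glycosyltransferases.

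With treat at a minimum log2 fold of 0.58, which called 1.1% of all genes, 3 and 3 P450 genes were called, with 1 and 0 for Cyp4, 1 and 2 for Cyp6, 0 and 0 for both Cyp9 and Cyp12, 1 lowered for the high-numbered families, 0 raised for the other families, 0 raised regulators, since Hr96 was lost, and 1 and 1 for UDP-glycosyltransferases. At an adjusted p of 0.01, which 2.44% of all genes passed, 3 and 7 were called, with 1 and 0 for Cyp4, 1 raised for Cyp6, 0 raised for Cyp9, 0 and 1 for Cyp12, 0 raised for the other families, and 1 raised UDP-glycosyltransferase. Quantile normalization and averaging the probe sets of a gene each left 0 raised Cyp12 genes, losing Cyp12e1. Trend and robust settings left 0 raised in the other families, losing Cyp49a1, and gave 1 lowered juvenile hormone gene. Median centring gave 1 raised UDP-glycosyltransferase. Without both arrays numbered 2, an alternative chosen after seeing the data that called 10.9% of all genes, 2 Cyp9 genes, 1 gene of the other families, 1 ecdysone response gene and 5 UDP-glycosyltransferases were lowered, and 0 of the other families were raised.

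Leaving out each array in turn gave 4 to 9 raised and 5 to 15 lowered P450 genes. Both upper ends come from the fit without wild type array 2, in which 13.8% of all genes were called (7.15% raised and 6.62% lowered), against 5.54% without wild type array 1 and 6.19% without wild type array 3. Without Sage array 1, 2 or 3, 2.17%, 1.88% and 1.66% of all genes were raised and 0.851%, 0.793% and 0.626% lowered. The count of 5 lowered is from the fit without Sage array 3. The count of 4 raised is from each fit without a Sage array and the one without wild type array 1, in which 2.59% of all genes were raised. By group the ranges were 1 to 3 and 0 to 4 for Cyp4, 1 to 2 and 2 to 4 for Cyp6, 0 to 1 and 1 to 2 for Cyp9, 0 to 1 and 0 to 3 for Cyp12, and 0 to 1 raised for the other families. For the lists they were 1 to 3 and 2 to 5 for UDP-glycosyltransferases, 0 to 2 lowered for both ecdysone response and juvenile hormone, and 1 to 2 raised regulators. The direction turned only for differences near 0 that were not called. The log2 fold change of Cyp18a1 ranged from -0.0256 (without Sage array 3) to 0.218 and the log2 fold change of Cyp303a1 from -0.0673 to 0.0464, with 0.0213, 0.0025 and 0.0464 without wild type array 2, Sage array 1 and Sage array 3. The log2 fold change of Cyp6a2 was -0.011 without both arrays numbered 2. Over 52 named genes and all settings, 674 of 809 values kept their direction and side of the threshold, 95 fell short of it, 35 came past it and 5 turned.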

Other observations

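The called P450 genes were spread over the chromosome arms. Called were 3 of 13 measured genes on arm 2L, 8 of 33 on 2R, 2 of 6 on 3L, 5 of 15 on 3R and 2 of 14 on the X. On 2L 9 of 13 differences were negative, and on the X 10 of 14 were positive. Both means were within the control range for 5 of these genes on 2L and 6 on the X. Of all genes 8.09% were called and 48.9% had a positive difference, and shares over all genes of an arm are not given here. In subfamilies with more than 1 measured gene, called or not, the differences were all negative for the 3 Cyp4e, 3 Cyp4p, 3 Cyp4ac and 2 Cyp12a genes, and all positive for the 2 Cyp4g, 2 Cyp6t and 2 Cyp9b genes. Among these, limma called Cyp4p1, Cyp4ac3 and Cyp12a4 lowered and Cyp9b2 raised. Several of the uncalled ones had very small differences with both means within the control range. Examples are Cyp6t3 (log2 0.00045), Cyp4ac1 (log2 -0.06), Cyp12a5 (log2 -0.12) and Cyp9b1 (log2 0.09). Like signs are therefore not read as subfamilies moving together. The Cyp6a, Cyp6d, Cyp6g, Cyp28d, Cyp309a and Cyp313a subfamilies held differences of both signs. In the 6 measured Cyp4d genes 5 differences were positive, with Cyp4d8 raised and Cyp4d1 lowered.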
